A study of Mus musculus with 11 samples.

Results

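The integrated stress response begins with kinases that phosphorylate the alpha subunit of the translation initiation factor eIF2 and ends with phosphatase complexes that remove that phosphate. The genes described here are Eif2ak1, Eif2ak2, Eif2ak3 and Eif2ak4, which encode the 4 kinases HRI, PKR, PERK and GCN2, Gcn1l1 and Impact, which encode a cofactor and an inhibitor of GCN2, Ppp1r15a and Ppp1r15b, which encode the regulatory subunits GADD34 and CReP of the eIF2 alpha phosphatases, and Nck1, which encodes an adaptor protein linked to PERK signalling and to eIF2 dephosphorylation. They were chosen by name, with earlier results of these data known. All 9 were found among the 48709 gene IDs of the count tables and passed the filter on low counts. RNA was sequenced from primary hippocampal neurons of the mouse after 10 days in culture, either kept at 20% oxygen throughout (control, 6 libraries) or moved to 1% oxygen for 4 h (hypoxia, 5 libraries). The labels name no strain, age, genotype or further treatment. They say that control and hypoxic cells shared their isolation, but not how many isolations there were or whether the libraries of a group are separate dishes or isolations, so p-values measure the spread between these libraries, which may be technical.

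Phosphorylated eIF2 binds and blocks its own exchange factor eIF2B, which lowers general translation while a few mRNAs with upstream open reading frames, among them Atf4, are translated more. Each kinase answers a different stress: HRI responds to low heme and to mitochondrial and oxidative stress, PKR to double-stranded RNA, PERK to unfolded protein in the endoplasmic reticulum (ER), and GCN2 to uncharged tRNA and stalled ribosomes. CReP keeps a constitutive phosphatase activity, whereas GADD34 is the inducible subunit of a feedback loop that restores translation. All of these proteins are also regulated after transcription, and RNA counts do not measure kinase activity or eIF2 phosphorylation.

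The library totals ran from 16619493 counts in control 1 to 31917157 in hypoxia 5. Levels are given in CPM, the count of a gene relative to the TMM-scaled total of its library, with the SD over libraries. Control 1, control 2 and hypoxia 5 lay farthest from the other libraries of their groups, with a mean SD of the log2 ratio to the others of 0.215, 0.190 and 0.189, against 0.146 to 0.172 in the other libraries, and results are therefore also given without these 3. Markers of the labelled cell type were present: all 8 neuron markers were detected and none was called. Their summed level was 5952 to 6487 CPM in control and 6000 to 6454 CPM in hypoxia. Astrocyte markers summed to 1429 to 1636 and 1411 to 1544 CPM, with Aqp4 lower and the other 4 not called; at an unadjusted p under 0.05, 3 of the 5 were lower, Aqp4, Gja1 and Gfap. Oligodendrocyte lineage markers summed to 113 to 157 and 94.8 to 123 CPM, with Mog, Olig1 and Olig2 of 7 lower. Microglia markers summed to 14.0 to 15.9 and 13.2 to 16.4 CPM, endothelial markers to 1.12 to 1.62 and 1.45 to 1.93 CPM, and fibroblast markers to 103 to 131 and 90.9 to 170 CPM, with none called. At an unadjusted p under 0.05 there was 1 neuron marker lower, 1 endothelial marker higher and no microglia or fibroblast marker, and DESeq2 called none of these 4 lists. Over all genes tested, edgeR called 10.1% higher and 12.8% lower. An unadjusted p under 0.05 was reached by 34.8% of them in either direction. Without control 1, control 2 and hypoxia 5, 2 neuron and 2 fibroblast markers were lower. Over all genes, 2331 were called higher and 2370 lower in that setting, against 1644 and 2078 with all libraries. No marker was at 0 in all libraries. Glial markers were thus present beside those of neurons, and all levels given here are those of the whole culture. In these bulk cultures fewer cells of a type and less RNA per cell cannot be told apart, and the part of the lower glial markers in the results below was not tested.

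After 4 h of low oxygen both phosphatase subunit mRNAs rose, while the kinase mRNAs moved little. Ppp1r15a rose 1.64-fold (95% confidence interval 1.48 to 1.81), Ppp1r15b 1.23-fold (1.17 to 1.29) and Impact 1.18-fold (1.08 to 1.27), and Eif2ak4 fell to 0.879 of its control level (0.818 to 0.943). Eif2ak1, Eif2ak2, Eif2ak3, Gcn1l1 and Nck1 did not pass an adjusted p of 0.05 in edgeR's quasi-likelihood test. Thus 3 of 9 genes were higher and 1 was lower. Among all 16235 genes tested, 10.1% were higher and 12.8% lower, 22.9% in either direction. Every hypoxia library lay above every control library for 2 of the 9 genes, Ppp1r15a and Ppp1r15b, and below for 1, Eif2ak4, against 6.72% and 7.26% of all genes (14.0% in either direction). The median log2 fold change was 0.10 over the 9 genes and -0.02 over all genes tested. Without control 1, control 2 and hypoxia 5, 4 genes were higher and 0 lower, because Eif2ak1 passed the threshold (adjusted p = 0.0126) and Eif2ak4 no longer did (adjusted p = 0.0923, edgeR). More genes were called in that setting over all genes, 2331 higher and 2370 lower, against 1644 and 2078 with all libraries.

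**Figure D1:**
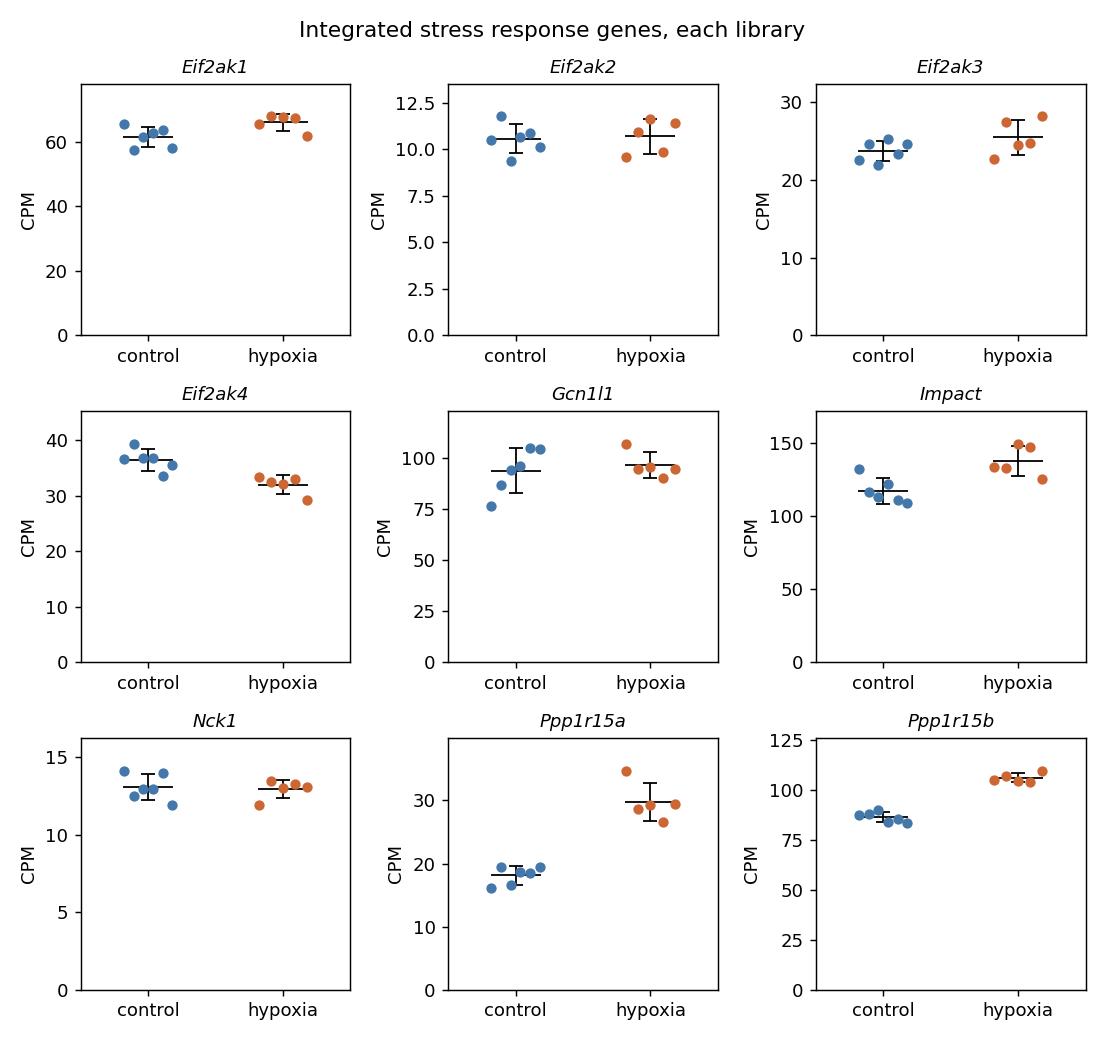
CPM of each of the 9 genes in every library (points), in control (6 libraries) and hypoxia (5 libraries), with the mean and SD as bars; each axis starts at 0. The groups do not overlap for Ppp1r15a, Ppp1r15b and Eif2ak4, and they overlap for the other 6 genes.

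**Figure D2:**
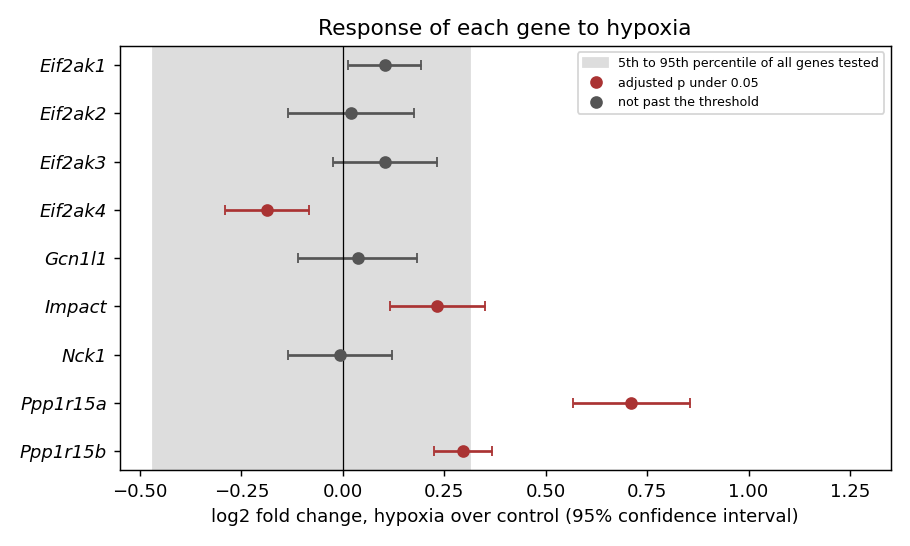
Log2 fold change of hypoxia over control for each gene with its 95% confidence interval from edgeR, with genes at an adjusted p under 0.05 in red. The grey band spans the 5th to 95th percentile of all genes tested, from -0.47 to 0.31; Ppp1r15a at 0.71 lies above it and the 8 others lie inside.

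Ppp1r15a (ENSMUSG00000040435, GRCm38 chromosome 7, 45522916 to 45526268, minus strand) showed the largest response of the 9 genes. Its product GADD34 brings protein phosphatase 1 (PP1) to eIF2 alpha. In control it ran from 16.1 to 19.4 CPM with a median of 18.5 CPM. In hypoxia 1 to 5 it stood at 34.7, 28.7, 29.3, 26.6 and 29.4 CPM. Every hypoxia library was above every control library, and hypoxia 1 was the highest. Group means were 18.1 ± 1.43 CPM (SD, n = 6) and 29.7 ± 2.99 CPM (SD, n = 5), and the log2 fold change was 0.71 (SE 0.07, edgeR quasi-likelihood, adjusted p = 2.78e-06). Of the 1644 genes called higher, 134, or 8.15%, had a log2 fold change at least as large, Ppp1r15a itself included. The raw counts behind these values were 269 to 588 in control and 659 to 930 in hypoxia. The authors' deposited table of higher genes gives Ppp1r15a a log2 fold change of 0.73 and an adjusted p of 2.15e-21.

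The start region of Ppp1r15a is shown because it was the one among the members' promoters to hold a cAMP response element (CRE), the palindrome bound by CREB and ATF proteins, and the ACGTG form of the hypoxia response element core. Eif2ak4, the member that fell, is shown beside it. Both are RefSeq windows on GRCm38.p6, from 250 bases before to 50 bases after the annotated start: chr7:45526219-45526518 on the minus strand for Ppp1r15a and chr2:118388367-118388666 on the plus strand for Eif2ak4, written 5′ to 3′ along the gene. Capitals mark every match, on either strand, to TGATGNAA (the C/EBP-ATF composite element), TGACGTCA (CRE), ACGTG or GCGTG.
Ppp1r15a: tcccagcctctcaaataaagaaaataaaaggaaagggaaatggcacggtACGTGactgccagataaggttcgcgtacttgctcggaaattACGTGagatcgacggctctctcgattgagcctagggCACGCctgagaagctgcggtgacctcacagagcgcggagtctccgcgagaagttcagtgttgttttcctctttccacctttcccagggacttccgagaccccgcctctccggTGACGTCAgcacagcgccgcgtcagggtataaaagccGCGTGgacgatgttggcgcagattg
Eif2ak4: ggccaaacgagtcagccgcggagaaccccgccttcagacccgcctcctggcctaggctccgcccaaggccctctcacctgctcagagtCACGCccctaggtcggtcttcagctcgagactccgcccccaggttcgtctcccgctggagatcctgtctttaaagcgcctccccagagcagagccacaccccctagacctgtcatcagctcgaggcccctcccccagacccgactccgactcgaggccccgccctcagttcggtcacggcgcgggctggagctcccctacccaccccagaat
In Ppp1r15a the CRE began at position -12, counted from the start with no position 0, the ACGTG cores at -201 and -160, and the GCGTG cores at -124 (opposite strand) and 26. The 2 core forms and the CRE share no bases in this window. In Eif2ak4 the single match was GCGTG on the opposite strand at -162. RefSeq windows were matched for 7 of the 9 genes (9 windows, as Eif2ak4 and Nck1 have 2 each), and those of Ppp1r15b and Impact were not among them. TGACGTCA and ACGTG each occurred in 1 of the 9 windows, GCGTG in 6 and TGATGNAA in 0. Among 32851 promoter windows of the same length, 1.79% held TGACGTCA, 19.6% ACGTG, 32.4% GCGTG and 3.97% TGATGNAA. The 32851 windows were not matched to the 9 for base content, so these shares do not test for an excess. These are matches of letters, and no binding was measured.

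Ppp1r15b (ENSMUSG00000046062, chromosome 1, 133131143 to 133139783, plus strand) is the paralogue whose product CReP holds PP1 on eIF2 alpha in unstressed cells. It ran from 83.4 to 89.9 CPM in control, with a median of 86.8 CPM. The hypoxia libraries stood at 105, 107, 105, 104 and 110 CPM, all above every control. The increase, from 86.6 ± 2.49 to 106 ± 2.27 CPM, was small, but the libraries of each group lay close together. Its coefficient of variation was 2.88% in control and 2.14% in hypoxia, near the 2.11% and 1.91% that counting error alone gives at its counts of 1467 to 3475. Its log2 fold change was 0.30 (SE 0.03, edgeR, adjusted p = 1.25e-05). The authors' deposited table gives 0.31 with an adjusted p of 6.37e-15. A predicted gene model on the opposite strand, Gm26616, covers 11.4% of the Ppp1r15b exons, and it had 50 counts over all libraries against 27983 for Ppp1r15b.

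Both subunits rose, and Ppp1r15a rose more. The comparison was made within each library, as the log2 ratio of the Ppp1r15a count to the Ppp1r15b count, to which library scaling adds almost nothing. This ratio was -2.26 ± 0.15 in control and -1.84 ± 0.14 in hypoxia, a difference of 0.42, and the groups did not overlap (exact permutation p = 0.00433, 2-sided, the smallest that 6 and 5 libraries allow, and 0.0173 after Benjamini-Hochberg adjustment over the 8 pairs of genes compared). Without control 1, control 2 and hypoxia 5 the difference was 0.41, where 4 libraries a group cannot give an exact p below 0.0286 (adjusted p = 0.114). Per kilobase of exon, Ppp1r15a went from 6.16 ± 0.49 to 10.1 ± 1.02 CPM per kb and Ppp1r15b from 15.5 ± 0.45 to 19.0 ± 0.41 CPM per kb. Ppp1r15b therefore stayed the more abundant subunit mRNA. Ppp1r15a made up 28.5 ± 2.03% of the sum of both per length in control and 34.7 ± 2.28% in hypoxia.

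**Figure D3:**
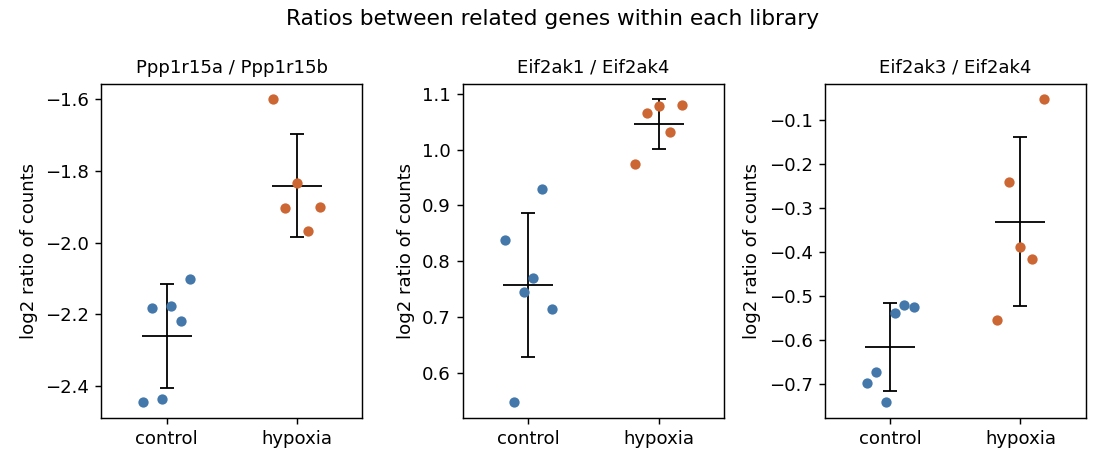
Log2 ratio of the counts of 2 genes within each library (points; mean and SD as bars) for the 3 pairs that passed the threshold. The libraries of the 2 groups are separate for Ppp1r15a over Ppp1r15b and for Eif2ak1 over Eif2ak4, and they overlap for Eif2ak3 over Eif2ak4.

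Among the kinases, Eif2ak4 (ENSMUSG00000005102, chromosome 2, 118388618 to 118475234, plus strand), which encodes the amino acid sensor GCN2, was the one called. It ran from 33.5 to 39.3 CPM in control with a median of 36.6 CPM, and stood at 33.3, 32.4, 32.0, 33.0 and 29.2 CPM in hypoxia 1 to 5. Every hypoxia library was below every control library, but the lowest control and the highest hypoxia library nearly touched. Group means were 36.4 ± 1.92 and 32.0 ± 1.64 CPM, and its log2 fold change was -0.19 (SE 0.05, edgeR, adjusted p = 0.0107). The authors' deposited table lists it as lower, at -0.18 with an adjusted p of 0.00696. The call held when any single library was left out (adjusted p of up to 0.0364), and it was lost without control 1, control 2 and hypoxia 5, where the log2 fold change was -0.11 (adjusted p = 0.0923). Control 2 and hypoxia 5 are the libraries with the highest and the lowest level of Eif2ak4.

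Eif2ak1 (ENSMUSG00000029613, chromosome 5, 143817788 to 143904251, plus strand) encodes the heme-regulated kinase HRI. It ran from 57.5 to 65.5 CPM in control, with a median of 62.1 CPM. In hypoxia it stood at 65.5, 67.9, 67.6, 67.4 and 61.7 CPM, so that only hypoxia 5 lay among the controls. Hypoxia 1 was just above the highest control (65.496 against 65.455 CPM in control 1), and hypoxia 2, 3 and 4 were farther above. Means were 61.5 ± 3.14 and 66.0 ± 2.58 CPM, with a log2 fold change of 0.10 (95% confidence interval 0.01 to 0.19) and an edgeR adjusted p of 0.0956. Its unadjusted p was 0.0280, under the 0.05 that 34.8% of all genes tested reached. The gene passed the threshold without control 1 (adjusted p = 0.0245), without hypoxia 5 (adjusted p = 0.0366) and in DESeq2 (adjusted p = 0.0466), at log2 fold changes of 0.13, 0.13 and 0.12. Over all alternatives its adjusted p ran from 0.0126 to 0.256. The library kit does not mark strand, and 487 bases, or 8.59%, of its exons overlap Aimp2 on the opposite strand, which had 5618 counts against 18577.

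Eif2ak3 (ENSMUSG00000031668, chromosome 6, 70844515 to 70905245, plus strand) encodes the ER stress sensor PERK. It ran from 21.9 to 25.3 CPM in control and from 22.7 to 28.2 CPM in hypoxia, with hypoxia 2 and 5 above all controls and the other 3 among them. Its log2 fold change was 0.10, with a 95% confidence interval from -0.02 to 0.23 (edgeR, adjusted p = 0.241). Eif2ak2 (ENSMUSG00000024079, chromosome 17, 78852564 to 78882573, minus strand) encodes PKR, which is inducible by interferon. It was the least abundant of the 9 genes by CPM and per length, with means of 10.6 ± 0.79 and 10.7 ± 0.93 CPM, and its groups overlapped throughout. Its log2 fold change of 0.02 had a 95% confidence interval from -0.13 to 0.18 (adjusted p = 0.878), so a change of the size seen in Ppp1r15b lies outside it. With 176 to 362 counts per library, counting error alone gives a coefficient of variation of 6.05% in control, against 7.46% measured. The sign of its log2 fold change turned without control 3, hypoxia 3 or hypoxia 5.

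Whether the kinases differed in response was tested pair by pair, again as log2 ratios within each library. The ratio of Eif2ak1 to Eif2ak4 rose from 0.76 ± 0.13 to 1.05 ± 0.04, a difference of 0.29 with no overlap between groups (exact permutation p = 0.00433, adjusted p = 0.0173 over 8 pairs). Eif2ak3 to Eif2ak4 also differed by 0.29 (exact permutation p = 0.0173, adjusted p = 0.0462), but this call was lost without any one library except hypoxia 1, at an adjusted p of up to 0.102. Eif2ak2 to Eif2ak4 differed by 0.20 and did not pass (adjusted p = 0.113, exact permutation). Without hypoxia 1 it did (adjusted p = 0.0381). The 3 pairs among Eif2ak1, Eif2ak2 and Eif2ak3 differed by -0.08 to 0.09 and did not pass (adjusted p = 0.249 to 0.996, exact permutation). Per length, Eif2ak1 made up 49.9 ± 2.09% of the summed kinase mRNA in control and 52.3 ± 1.32% in hypoxia, Eif2ak4 22.5 ± 1.19% and 19.3 ± 0.99%, Eif2ak3 18.1 ± 1.03% and 19.0 ± 1.67%, and Eif2ak2 9.50 ± 0.63% and 9.39 ± 0.79%. The sum itself was 21.7 ± 0.50 and 22.3 ± 0.57 CPM per kb.

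The genes that act on GCN2 had different values. Impact (ENSMUSG00000024423, chromosome 18, 12955852 to 12992950, plus strand) encodes a protein abundant in neurons that competes with GCN2 for binding to GCN1 and so holds GCN2 inactive. It ran from 109 to 132 CPM in control with a median of 115 CPM, and stood at 134, 133, 149, 147 and 125 CPM in hypoxia 1 to 5. The groups overlapped through control 1, the highest control, and hypoxia 5, the lowest hypoxia library. Group means were 117 ± 8.70 and 138 ± 10.1 CPM. Impact rose by 0.23 on the log2 scale (SE 0.06, edgeR, adjusted p = 0.00615), and without control 1, control 2 and hypoxia 5 by 0.32 (adjusted p = 5.01e-05). The authors' deposited table gives 0.23 with an adjusted p of 3.60e-05.

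Gcn1l1 (ENSMUSG00000041638, named Gcn1 in RefSeq, chromosome 5, 115565254 to 115622654, plus strand) encodes GCN1, the ribosome-bound protein that GCN2 needs for activation. It ran from 76.8 to 105 CPM in control, the widest spread of the 9 genes relative to its mean (11.6%, against 2.06% from counting error), with control 1 the lowest. Hypoxia libraries stood at 107, 94.8, 95.7, 90.1 and 94.9 CPM and overlapped the controls. Its log2 fold change was 0.04, with a 95% confidence interval from -0.11 to 0.18 (edgeR, adjusted p = 0.757), and its sign turned without hypoxia 1. The difference in response between Gcn1l1 and Impact, -0.19 on the log2 scale, did not pass (exact permutation p = 0.221, adjusted p = 0.294). Nck1 (ENSMUSG00000032475, chromosome 9, 100492293 to 100546134, minus strand), an adaptor with SH2 and SH3 domains, had means of 13.1 ± 0.85 and 12.9 ± 0.59 CPM, with hypoxia 1 the lowest of its group at 11.9 CPM. Its log2 fold change was -0.01, with a 95% confidence interval from -0.13 to 0.12 (adjusted p = 0.952), and its sign turned under several alternatives.

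Levels of different genes were compared per kilobase of exon. In control Impact was highest at 22.9 ± 1.70 CPM per kb, followed by Ppp1r15b at 15.5, Eif2ak1 at 10.8, Ppp1r15a at 6.16, Gcn1l1 at 5.27, Eif2ak4 at 4.88, Eif2ak3 at 3.94, Nck1 at 2.72 and Eif2ak2 at 2.07 CPM per kb. The control libraries of neighbours in this order were separate except for Ppp1r15a with Gcn1l1 and Gcn1l1 with Eif2ak4, which overlapped. The mRNA of a GCN2 inhibitor thus stood above that of every kinase in these cultures, and HRI had the most abundant kinase mRNA. In hypoxia Ppp1r15a reached 10.1 CPM per kb, with a range of 9.07 to 11.8 that overlapped the 10.9 to 11.97 CPM per kb of Eif2ak1.

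**Figure D4:**
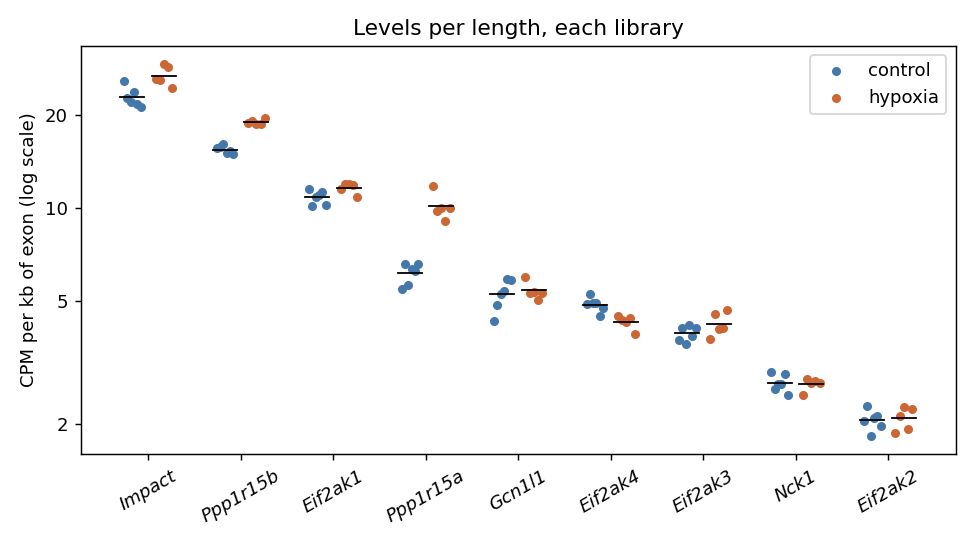
Level per length of the 9 genes in every library, as CPM per kb of exon on a log axis, ordered by the control mean (lines are group means). Impact at 22.9 and Ppp1r15b at 15.5 CPM per kb lead in control, and Ppp1r15a moves from 6.16 to 10.1 CPM per kb in hypoxia.

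Of 10 genes for eIF2, eIF2B and their partners, 2 were higher, 1 was lower and 7 did not pass (median log2 fold change 0.08). This is 30% called in either direction, against 22.9% over all genes tested (10.1% higher and 12.8% lower). Eif2s2, which encodes eIF2 beta, rose from 68.3 ± 3.09 to 79.2 ± 4.27 CPM (edgeR, adjusted p = 0.00201), and Eif2b5, the catalytic subunit of eIF2B, from 98.4 ± 2.39 to 110 ± 2.55 CPM (adjusted p = 0.00157). Eif5, the GTPase-activating protein of eIF2, fell from 271 ± 21.3 to 217 ± 10.2 CPM (adjusted p = 0.000255). Eif2s1, which encodes the phosphorylated subunit eIF2 alpha itself, had a log2 fold change of 0.01 (95% confidence interval from -0.10 to 0.12). Without control 1, control 2 and hypoxia 5, 4 of the 10 were higher and 1 lower. Calls over all genes also rose there, to 2331 higher and 2370 lower from 1644 and 2078. Of the PP1 catalytic subunits that GADD34 and CReP bind, Ppp1ca, Ppp1cb and Ppp1cc, 0 of 3 passed in edgeR or in DESeq2, and 1 had an unadjusted p under 0.05. This was Ppp1cb, the most abundant, with means of 493 ± 28.1 and 434 ± 53.6 CPM (log2 fold change -0.18, adjusted p = 0.0558). Ppp1cb passed as lower without hypoxia 4 (adjusted p = 0.0191) or hypoxia 5 (adjusted p = 0.0287), with upper-quartile factors (0.0478), with no filter on low counts (0.0316) and without control 1, control 2 and hypoxia 5 (0.0490).

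Of 15 other regulators of the kinases, 3 were higher, 3 lower and 9 did not pass (median log2 fold change -0.01). Over all genes tested, 10.1% were higher and 12.8% lower, 22.9% in either direction. Adar, whose RNA editing limits the double-stranded RNA that PKR senses, rose from 125 ± 7.25 to 145 ± 4.06 CPM (edgeR, adjusted p = 0.00109). Dnajc3, the ER cochaperone p58IPK known as an inhibitor of PKR and PERK, fell from 63.2 ± 2.09 to 54.8 ± 3.46 CPM (adjusted p = 0.00340). Hsp90aa1, an HSP90 chaperone that folds HRI and other kinases, rose from 232 ± 10.7 to 261 ± 9.01 CPM (adjusted p = 0.00354). Hsp90ab1 was also higher, and Tarbp2, an inhibitor of PKR, and Hspa8 were lower. Hspa5, the ER chaperone BiP that holds PERK inactive, was at 405 ± 12.7 and 403 ± 27.2 CPM (adjusted p = 0.922). Prkra, the PKR activator PACT, and Oma1 and Dele1, which relay mitochondrial stress to HRI, did not pass, with log2 fold changes of 0.03, -0.18 and 0.09.

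PERK is 1 of several ER stress sensors, and the others did not share one direction. Of 9 genes for the other sensors and their processing, 2 were higher, 3 lower and 4 did not pass (median log2 fold change -0.08). Over all genes tested, 10.1% were higher and 12.8% lower. Without control 1, control 2 and hypoxia 5, 2 of the 9 were higher and 5 lower. Calls over all genes also rose there, to 2331 higher and 2370 lower from 1644 and 2078. Ern1, which encodes IRE1 alpha, had a log2 fold change of -0.42 (edgeR, adjusted p = 0.000126), its target Xbp1 of -0.32 (adjusted p = 0.000726) and Atf6 of 0.15 (adjusted p = 0.00589). Creb3 was higher and the protease gene Mbtps1 lower. Of 15 interferon-inducible genes, a group to which Eif2ak2 also belongs, 9 had enough counts to be tested, 0 were higher (also 0 at an unadjusted p under 0.05 and 0 in DESeq2) and Irf9 alone was lower, from 11.6 ± 0.64 to 9.34 ± 0.41 CPM (adjusted p = 0.00190). The median log2 fold change of these 9 was -0.30, and 5 of them were below 5 CPM in both groups.

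Of 14 genes of the ATF4 and stress response list, 11 were higher and none was lower (median log2 fold change 0.76). Over all genes tested, 10.1% were higher and 12.8% lower. ATF4 is the transcription factor whose translation rises with eIF2 phosphorylation, and together with its target CHOP it induces Ppp1r15a. Atf4 mRNA rose by 1.10 on the log2 scale (SE 0.04), Chac1 by 1.63 and Atf3 by 2.02 (edgeR, adjusted p = 7.28e-11, 2.38e-09 and 2.52e-09). Ddit3, which encodes CHOP, rose from 15.4 ± 1.11 to 22.8 ± 1.16 CPM, by 0.56 on the log2 scale (adjusted p = 5.16e-06). The log2 fold change of Ppp1r15a, 0.71, lies near the median of this list. Whether ATF4 or CHOP acted on Ppp1r15a in these cultures was not tested. Whether eIF2 phosphorylation raised the genes of this list was not tested either. Cebpb, Nupr1 and Atf5 did not pass. At an unadjusted p under 0.05 (edgeR) all 14 were higher, where 34.8% of all genes differed in either direction.

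**Figure D5:**
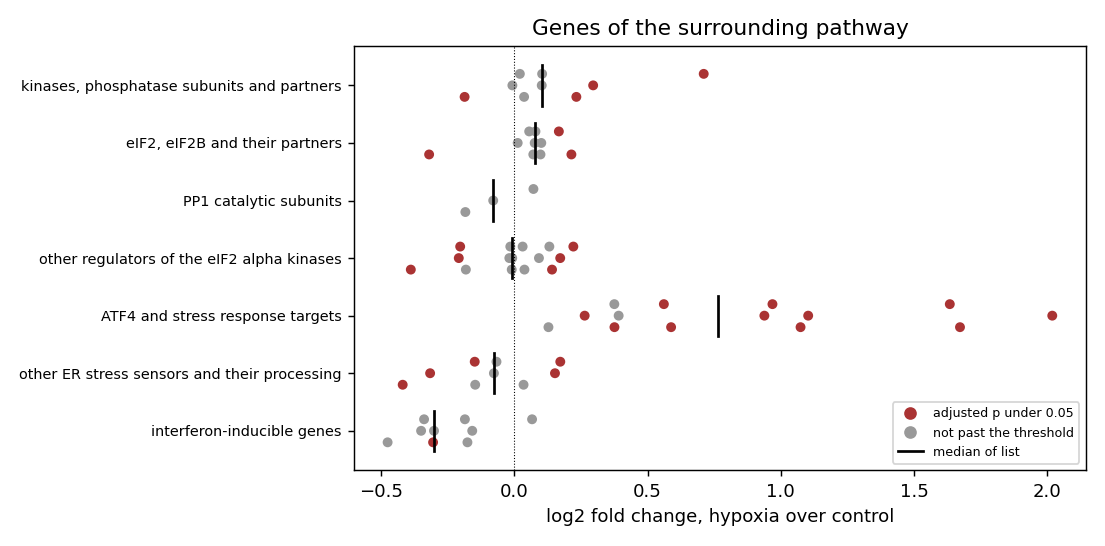
Log2 fold change of hypoxia over control for each tested gene (points; red at an adjusted p under 0.05) of the 9 genes described here and of 6 lists of surrounding genes, with the median of each as a black line. The ATF4 list has a median of 0.76 and the other lists lie between -0.30 and 0.10.

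By likeness of pattern, measured as Pearson's r of log2 CPM over the 11 libraries among 10703 genes with a mean of at least 5 CPM, the 3 genes closest to Ppp1r15a were Nfil3, Cbx8 and Gadd45g (r = 0.983, 0.981 and 0.981). The bZIP repressor Nfil3 was at 16.5 ± 0.98 and 34.3 ± 2.11 CPM, the Polycomb protein gene Cbx8 at 9.94 ± 1.10 and 16.6 ± 1.97 CPM, and the stress gene Gadd45g at 4.86 ± 0.86 and 15.7 ± 2.46 CPM in control and hypoxia. The closest to Ppp1r15b were Dpyd, a pyrimidine-degrading enzyme, the splicing factor Prpf8 and the phosphoinositide phosphatase Mtmr3 (r = 0.987, 0.987 and 0.985). These values are descriptions: the points share their library and its scaling, and each gene differs between the same 2 groups, which sets much of r.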

How the data were processed

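Each library has a table of raw gene counts that the authors deposited. The submitters' processing notes name STAR 2.5.2b, FastQC 0.11.5, Subread 1.5.1 with featureCounts, DESeq2 and the build mm10. Annotation release, strand setting and multi-mapping rule: not given in the sources used here. Per the labels' protocols, polyadenylated RNA was read as single ends of 50 bp from a kit that does not mark strand. The authors' 2 deposited tables hold log2 fold changes, adjusted p-values and, per library, a normalized signal, found to be the count over 1 size factor per library (all values within 0.0001 of the ratio).

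Genes were filtered with filterByExpr, scaled with TMM and tested with edgeR 4.0.16 (R 4.3.3) quasi-likelihood over all 16235 genes, with no covariate, Benjamini-Hochberg adjustment and a threshold of 0.05. The SE is the log2 fold change over the square root of F. Pairs of genes were compared by exact permutation of log2 count ratios with a prior count of 0.5. Positions and exon lengths are from GENCODE M21 (GRCm38), and promoters from RefSeq. Per-length levels use all annotated exons of a gene, whichever isoforms are expressed. No 2 libraries held identical counts. Coefficients of variation from counting cover counting error only, since reads carry no molecular identifiers. The confidence intervals of fold changes come from the edgeR fit, which includes the spread between libraries. On simulated counts for these libraries (16235 genes), 31.2% of changes of 0.2 on the log2 scale and 100% of 0.5 were recovered. Only 154 genes were called there, against 3722 in the data, so a call there needed a lower unadjusted p. These shares therefore do not give the recovery in the data.

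The members and gene lists were chosen with earlier results of these data known. From each list, the text names the up to 3 called genes with the smallest p, or the most abundant where none was called, the 9 members whatever their values, and for the 2 members of smallest p the 3 genes most alike, leaving out predicted genes. Other list genes were named after their values were seen. Alternatives were DESeq2 1.42.0, upper-quartile factors, no filter, robust dispersion, the replicate number as a block, and leaving out each library; leaving out control 1, control 2 and hypoxia 5 together, and all alternatives for list counts, were added after seeing the data.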

Additional observations from a re-analysis of the deposited data

Results flagged for a closer look

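In 7 of 58 groups of libraries examined for the genes named above, 1 library lay apart by Dixon's ratio of its gap to the whole range of its group; chance flags about 1 group in 20. Among the 9 genes this was Nck1 in hypoxia, where hypoxia 1 stood at 11.9 CPM and the others at 13.01 to 13.4 CPM (ratio 0.717). Control 1 was the highest control for Eif5 (313 CPM against 253 to 270 CPM, ratio 0.717), Ppp1cb (547 against 471 to 495 CPM, ratio 0.693) and Xbp1 (95.5 against 86.1 to 89.3 CPM, ratio 0.658), and it is also the library with the lowest total count. Control 4 was the highest control for Chac1 (8.40 against 6.55 to 6.79 CPM, ratio 0.873) and the lowest for Atf6 (54.0 against 57.2 to 58.4 CPM, ratio 0.718). Hypoxia 1 was the highest for Cbx8 (20.1 against 15.6 to 15.9 CPM, ratio 0.937).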

How the results depend on the processing

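Ppp1r15a, Ppp1r15b and Impact kept their direction and their call under all 17 alternatives, at log2 fold changes of 0.65 to 0.75, 0.29 to 0.31 and 0.20 to 0.32. Eif2ak4 kept its direction under all of them and lost its call under 1, without control 1, control 2 and hypoxia 5, which left 0 members lower. Its log2 fold change there was -0.11 against -0.19 with all libraries, while over all genes 2331 higher and 2370 lower calls were made in that setting; the cause was not tested. Under the same setting the differences of response were 0.41 for Ppp1r15a and Ppp1r15b, 0.25 for Eif2ak1 and Eif2ak4 (both adjusted p = 0.114, exact permutation) and 0.18 for Eif2ak3 and Eif2ak4 (adjusted p = 0.229), where 4 libraries a group cannot go below an exact p of 0.0286. Leaving out 1 library at a time, the difference ran from 0.22 to 0.34 for Eif2ak3 and Eif2ak4, from -0.036 to 0.064 for Eif2ak1 and Eif2ak3, and from 0.14 to 0.26 for Eif2ak2 and Eif2ak4. Log2 fold changes near 0 turned sign: Eif2ak2 ran from -0.013 to 0.056 and Nck1 from -0.032 to 0.025 over single libraries left out, Gcn1l1 from -0.0030 to 0.080; Gcn1l1 was at -0.030 and Nck1 at 0.015 without the 3 libraries, and Nck1 at 0.011 in DESeq2 and 0.0033 with no filter. Over all genes, the alternatives gave 1297 to 2331 higher and 1500 to 2370 lower calls.

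The libraries of both groups carry replicate numbers, but deviations of same-numbered libraries correlated at -0.39 to 0.37, so the numbers were not taken as pairs. With the replicate number as a block, 1297 genes were higher and 1649 lower, and 3 members were higher and 1 lower. Of changes of 0.2 on the log2 scale, 31.2% were recovered in simulation, where a call needed a lower unadjusted p than in the data. The median fold of all genes called higher in the data was 1.16. The 5 uncalled members are bounded by their intervals and not shown to be unchanged.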
